A study of Mus musculus with 18 samples.

Results

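The collagen genes of the rat heart were examined in ventricular RNA of wild-type rats and of rats with a mutation that alters titin splicing, at 3 ages. Members were all genes whose single annotated symbol has the form of a collagen chain (Col, a type number, the letter a, a chain number). This gave 41 genes among the 14217 genes that had at least 1 probe set annotated to them alone, and covered 58 of 31042 tested probe sets. A gene with more than 1 probe set, which was the case for 14 collagens, was represented by the probe set of highest mean level over the 18 arrays. The choice used the name and the mean level only, not any difference between groups.

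Each of the 18 arrays held RNA of 1 animal, with 3 wild-type and 3 homozygous mutant rats at each of days 1, 20 and 49 after birth. The mutation arose in Sprague-Dawley rats, which were crossed with Fisher 344 inbreds, so both genotypes carry a mixed background, and littermates and sex were not given in the sources used here. The design text speaks of ventricles and the sample titles of whole heart. The organism is labelled mouse, but strains, descriptions and array type are those of rat. Since the genotype field has a single entry for all animals, genotypes came from the other fields of the labels. The line is a germline mutant, which leaves the cell type behind a difference in whole ventricular tissue unknown.

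Collagens are trimers of chains wound into a triple helix. Fibrillar collagens (types I, III and V in heart) form the tensile network around muscle fibres and are made mainly by fibroblasts, whereas type IV forms the sheet of the basement membrane around myocytes and capillaries. Type VI forms beaded filaments beside that sheet, type VIII short-chain lattices, and types XV and XVIII (the multiplexins) link basement membranes to the surrounding matrix and release antiangiogenic fragments. Around birth the heart grows quickly and later its matrix matures and turns over slowly.

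The medians of the arrays ranged from 5.42 to 5.50 (log2), and arrays of a group correlated at 0.985 to 0.995 over probe sets. Rbm20, the splicing regulator of titin known to be affected in this line, was lower in mutants by 5.04, 5.11 and 4.33 (log2) at days 1, 20 and 49, each difference being called by the test defined below. The gap between the 3′ and 5′ probe sets of Gapdh, a measure of RNA integrity and labelling, was 0.63 to 1.37 at day 1, 0.33 to 0.90 at day 20 and 0.33 to 0.48 at day 49, with wild-type day 20 replicate 2 (0.90) within the range of day 1. At day 49 the hybridization controls were at 8.42 to 9.90 in mutants and 9.84 to 10.16 in wild type. Markers of cardiomyocytes (mean log2 level 12.99 to 13.35 over all arrays) were high throughout. In wild type they went from 12.99 to 13.11 at day 1 to 13.23 to 13.30 at day 20. Fewer cells of a type and less RNA per cell cannot be told apart in such tissue.

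Of the 41 collagens, 11 were fibrillar, 9 fibril-associated, 5 of the basement membrane network, 5 of the beaded filament group, 4 transmembrane, 3 short-chain, 2 multiplexins and 2 others (the anchoring fibril chain Col7a1 and Col26a1). Col4a3, Col6a4, Col21a1 and Col28a1 were not analysed here. The mean level of 26 collagens was at or above the median of all probe sets (5.47), and that of 15, among them the cartilage chains Col2a1, Col9a1, Col10a1 and Col11a1, was below it, where differences are compressed. A call below means an adjusted p under 0.05 in the two-sided moderated test of limma, adjusted over all tested probe sets by the Benjamini-Hochberg method. Differences are given on the log2 scale with the standard error of the model. Collagens were called between ages, as given step by step below, whereas none was called between genotypes.

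From day 1 to day 20 RNA of both type I chains, of Col4a1 and Col4a2 and of Col18a1 fell in the wild-type heart, and that of Col15a1 and Col4a5 rose. In all 13 of 41 collagens (31.7%) were called, against 28.1% of all probe sets. Of these 11 fell (26.8%, against 15.6% of all probe sets) and 2 rose (4.88%, against 12.6%). Among all 14217 genes taken with 1 probe set each, 21.8% fell and 14.3% rose. With the Gapdh gap in the model the balance of the collagens was 7 lower and 4 higher. The shares of all probe sets in that model are not given here, so this shift does not mark a trait of collagens. The median difference over the collagens was -0.15, and over all probe sets 0.04, and 15 of 41 collagens (36.6%, against 56.7%) were above 0. The wild-type groups did not overlap for 16 collagens that were lower at day 20 (against 20.7%) and 6 that were higher (against 22.5%).

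**Figure D1:**
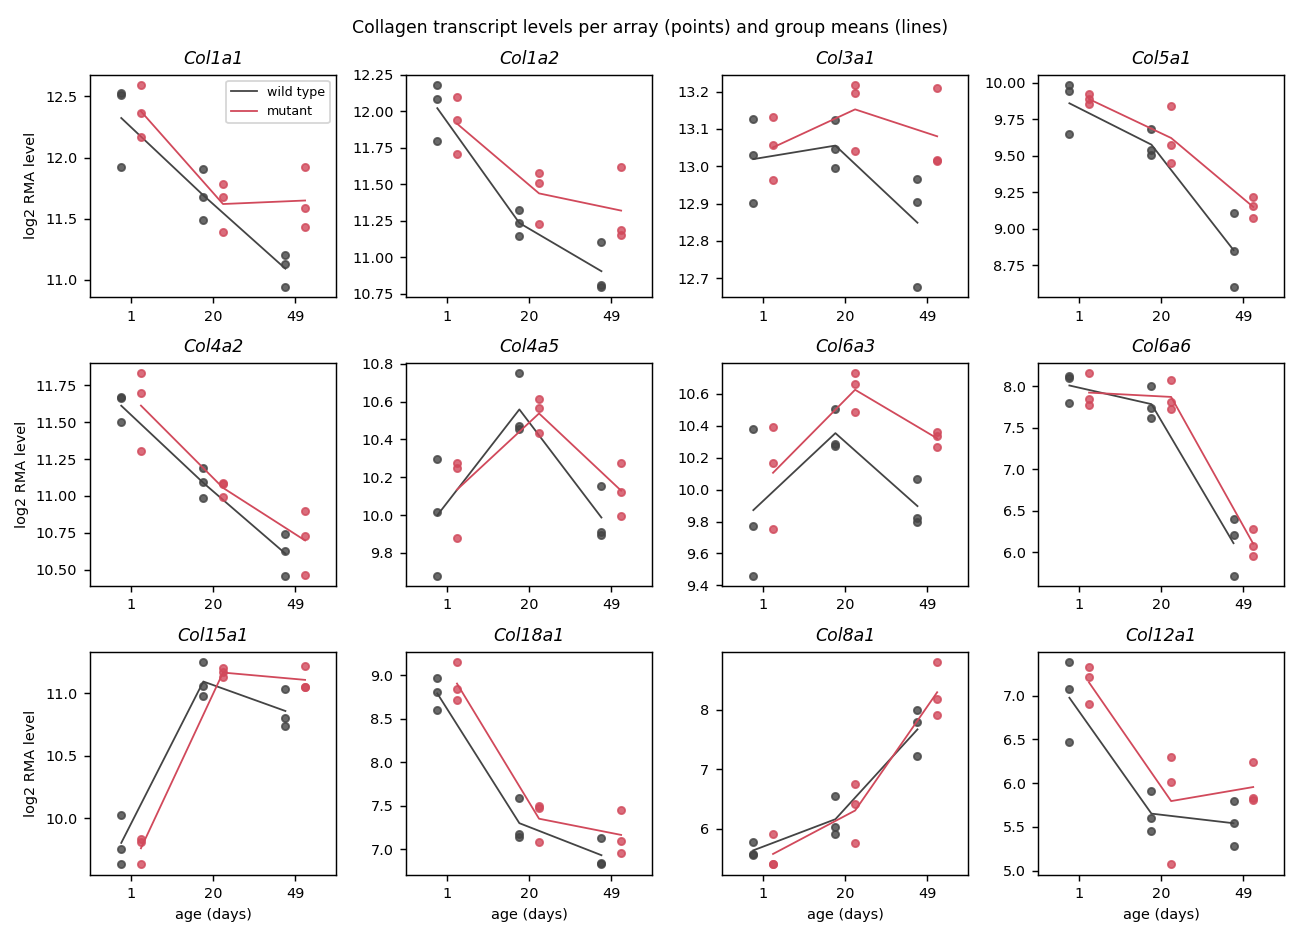
Levels of 12 collagens on each array (points; log2 RMA level, vertical axes differing between panels) by age in days, with wild type in dark grey, mutant in red and lines joining the group means of 3 animals. Col1a1, Col1a2, Col18a1 and Col12a1 were highest at day 1, Col15a1 was lowest at day 1, Col8a1 was highest and Col6a6 lowest at day 49.

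Among fibrillar chains, Col1a2, the second chain of type I collagen, was at 12.08, 12.18 and 11.80 on the wild-type arrays of day 1 and at 11.24, 11.32 and 11.14 on those of day 20. All 3 newborn arrays lay above all 3 later ones, and the fall was 0.79 ± 0.14 (SE, n = 3 per group; adjusted p = 0.000395). Col1a1, the first chain of type I, went from 12.52, 12.53 and 11.92 to 11.68, 11.91 and 11.49, and fell by 0.63 ± 0.17 (adjusted p = 0.00909). Its lowest newborn array was only just above its highest array of day 20, and its call was lost without wild-type day 1 replicate 1 (-0.54), without wild-type day 20 replicate 3 (-0.53) and with the Gapdh gap in the model (-0.43). Col5a2, a chain of type V collagen, which sets the diameter of type I fibrils, fell by 0.44 ± 0.12 (adjusted p = 0.00769). Col3a1, the chain of the finer type III fibrils, was at 13.03, 13.13 and 12.90 at day 1 and at 12.99, 13.12 and 13.05 at day 20, overlapping ranges with a difference of 0.04 (95% interval -0.17 to 0.24). The second probe sets of Col1a1 (-0.80), Col1a2 (-0.71) and Col5a2 (-0.46) were also called lower. Col5a1, the other main type V chain, was at -0.28 (adjusted p = 0.109), with its second probe set called lower (-0.51).

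In the basement membrane, the main chains and a minor chain moved in opposite directions. Col4a2 went from 11.66, 11.67 and 11.50 to 11.09, 11.19 and 10.99 in wild type and fell by 0.52 ± 0.13 (adjusted p = 0.00484), and Col4a1, its partner in the heterotrimer, fell by 0.46 ± 0.15 (adjusted p = 0.0230). With the Gapdh gap in the model these 2 falls were 0.37 and 0.34 and no longer called, and the Col4a1 call also went without wild-type day 1 replicate 1 or 3 or day 20 replicate 1 or 3 (adjusted p = 0.0551 to 0.0845). Col4a5, a chain of a different type IV heterotrimer, went from 10.02, 10.30 and 9.68 to 10.47, 10.75 and 10.46. Its groups did not overlap and it rose by 0.56 ± 0.15 (adjusted p = 0.00689), but not past the threshold without wild-type day 1 replicate 3 (0.40, adjusted p = 0.0519). Col4a1 and Col4a2 are known to lie head to head on a shared promoter, as do Col4a5 and Col4a6. The within-array difference between Col4a1 and Col4a2 changed by 0.06 in wild type, with overlapping groups, whereas that between Col4a5 and Col4a6 changed by 0.64, with every array of day 20 above every array of day 1. The difference of Col4a1 over Col4a2 did change without overlap in mutants over this step (0.20). It also did so in wild type from day 20 to day 49 (0.32), but not in mutants there (0.11).

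The 2 multiplexins moved in opposite directions. Col15a1 was at 9.75, 9.63 and 10.03 at day 1 and at 11.06, 11.25 and 10.98 at day 20 in wild type. All arrays of day 20 lay above all arrays of day 1, and the rise of 1.29 ± 0.11 (2.45-fold, adjusted p = 7.302e-08) was matched by its second probe set (1.79). Col18a1, the source of endostatin, went from 8.97, 8.81 and 8.60 to 7.14, 7.59 and 7.17. It fell by 1.49 ± 0.16 (2.81-fold lower, adjusted p = 1.246e-06), and by 1.17 on its second probe set.

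In the beaded filament group Col6a2 was called lower (10.33, 10.20 and 9.98 against 9.62, 9.74 and 9.47; -0.56 ± 0.15, adjusted p = 0.0107), but its other probe set gave 0.13 and the mean of both was not called (-0.21, adjusted p = 0.102). Its call was also lost without wild-type day 1 replicate 1 (-0.48), without wild-type day 20 replicate 3 (-0.49) and with the Gapdh gap in the model (-0.35). Col6a1 was at -0.16 and Col6a3 at 0.48 ± 0.18 (adjusted p = 0.0554), neither past the threshold, although the second probe set of Col6a3 was called higher (0.47). Among fibril-associated chains, which sit on the surface of fibrils, Col12a1 went from 7.08, 7.38 and 6.46 to 5.45, 5.91 and 5.60 and fell by 1.32 ± 0.26 (adjusted p = 0.000790). Its groups were apart on this probe set alone, since none of its other probe sets was called and their differences reached 0.03. Col16a1 fell by 0.48 ± 0.10 (adjusted p = 0.00133). Col26a1, a secreted chain of little-known role, went from 6.25, 6.83 and 6.33 to 5.54, 5.45 and 5.64 and fell by 0.93 ± 0.19 (adjusted p = 0.000928). Col13a1, a transmembrane chain of cell contacts, fell by 0.58 ± 0.12 at levels near background.

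**Figure D2:**
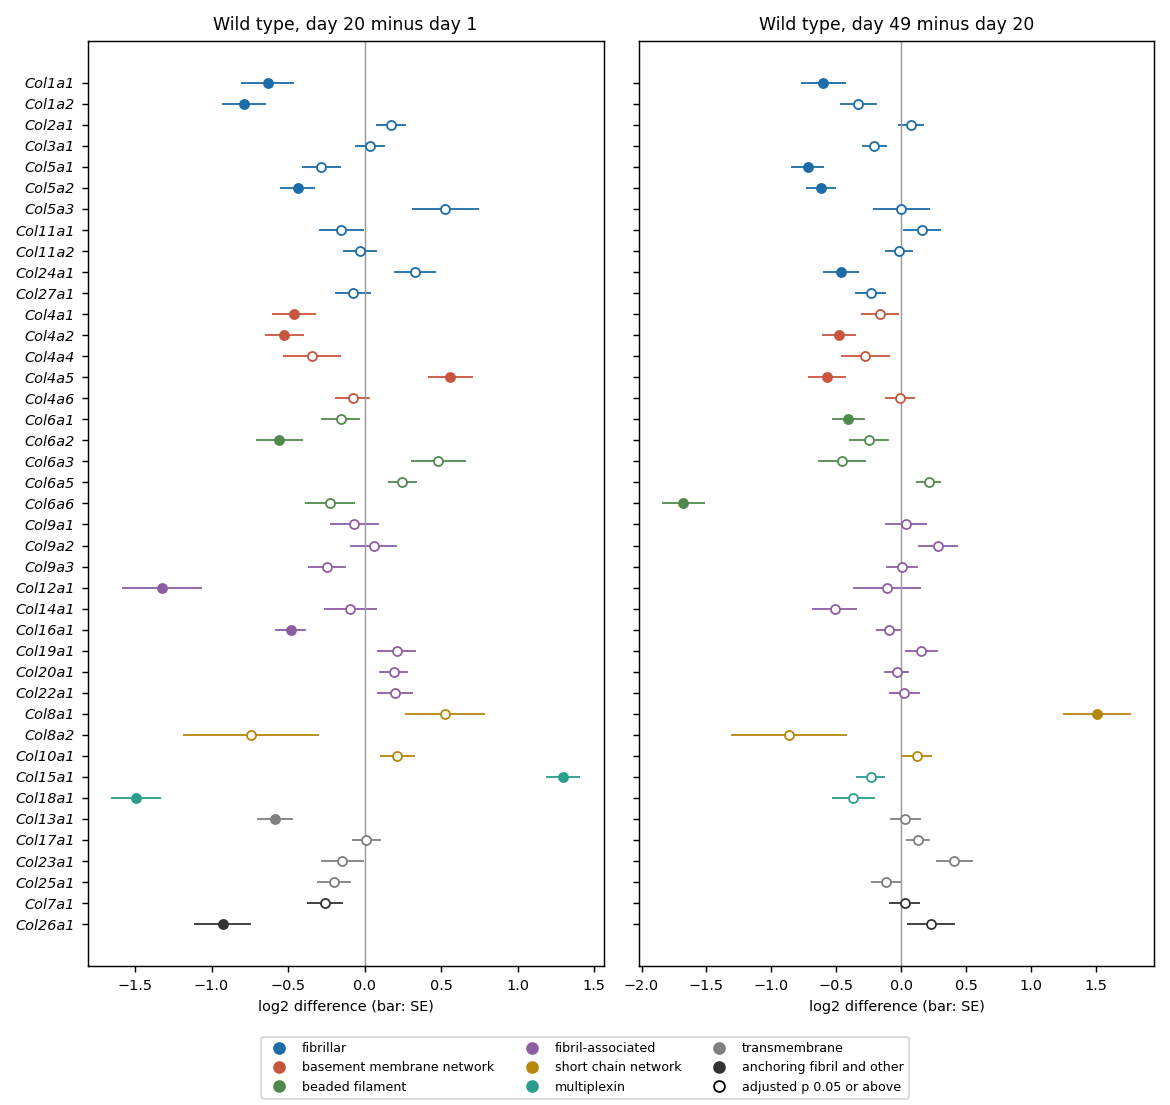
Wild-type log2 differences (horizontal axes; bars are SE, n = 3 animals per group) of the 41 collagens, coloured by family, for day 20 minus day 1 (left) and day 49 minus day 20 (right); filled points were called. On the left Col15a1 and Col4a5 are the filled points above 0 and 11 filled points lie below it; on the right Col8a1 is the filled point above 0 and 8 lie below it.

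The genes that make and handle collagen moved both ways over the same interval in wild type. Their counts are to be read against the 12.6% of all probe sets that rose and the 15.6% that fell. Since the lists hold 1 probe set per gene, the shares of all genes given above for this step, which are higher, are the closer base. Of 25 genes of chain assembly and modification 5 rose and 5 fell, with P4ha3, a prolyl 4-hydroxylase subunit, at -1.89 ± 0.20, and Fkbp10, a procollagen chaperone, at -1.15 ± 0.13. P4ha2, another subunit of that enzyme, rose by 0.63 ± 0.09 and Sec24d, a coat protein of procollagen export, by 0.81 ± 0.11. Of 9 maturation genes 3 fell and none rose. They were the transglutaminase Tgm2 (-1.50 ± 0.10), the procollagen proteinase enhancer Pcolce (-0.84 ± 0.11) and the proteinase Bmp1 itself (-0.59 ± 0.13). Of 28 fibril and basement membrane partners 8 rose, led by the small proteoglycan decorin (Dcn, 1.36 ± 0.10), dermatopontin (Dpt, 1.25 ± 0.12) and osteoglycin (Ogn, 1.02 ± 0.10), and 9 fell, led by nidogen 2 (Nid2, -1.29 ± 0.11).

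Among 19 genes of collagen degradation and its inhibitors 3 rose, including cathepsin L (Ctsl, 0.61 ± 0.10) and the inhibitor Timp2 (0.52 ± 0.11), and 4 fell, including Timp1 (-1.12 ± 0.16) and Mmp15 (-0.65 ± 0.10). Of 11 collagen receptors and their partners 2 rose and 5 fell. The fibrillar collagen receptor Ddr2 rose by 1.11 ± 0.13 while its relative Ddr1 fell by 0.54 ± 0.12, and integrin-linked kinase (Ilk) and the proteoglycan Cspg4 fell by 0.87 ± 0.08 and 0.59 ± 0.11. Of 27 genes of TGF-beta and other profibrotic signals 1 rose, the tendon transcription factor Scx (1.17 ± 0.12), and 3 fell, Ccn2 (-1.67 ± 0.31), Smad2 (-0.57 ± 0.12) and Meox1 (-0.82 ± 0.23).

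Markers of cell types also changed over this step, where 12.6% of all probe sets rose and 15.6% fell. The mean level of 10 fibroblast markers went from 8.39 to 8.53 on wild-type arrays of day 1 to 8.85 to 9.14 at day 20, with 6 markers called higher and 3 lower, while type I collagen fell. The 10 mural markers (pericytes and smooth muscle) went from 8.14 to 8.26 down to 7.54 to 8.04, with 3 called higher and 5 lower, and 5 of 10 leukocyte markers were called higher. Of 7 epicardial or mesothelial markers 3 were called lower, and of 9 endothelial markers 1 was called higher. Dcn, Lum, Dpt, Ddr2 and Fap count both as fibroblast markers and in the lists above. Cspg4 counts both as a mural marker and there, so the marker counts are not separate from those lists. The part of these shifts in the collagen differences was not tested.

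From day 20 to day 49 RNA of Col6a6, Col5a1, Col5a2 and Col1a1 fell in the wild-type heart, and that of Col8a1 rose. In all 9 of 41 collagens (22.0%) were called, against 9.58% of all probe sets and 12.1% of all genes. Of these 8 fell (19.5%, against 6.05% of all probe sets) and 1 rose (2.44%, against 3.53%). The lower calls were 3 when any 1 of wild-type day 20 replicate 2 and day 49 replicates 1 and 2 was left out, and 4 without day 20 replicate 1 or with the Gapdh gap in the model. The shares of all probe sets under these alternatives are not given. The median over the collagens was -0.11 (all probe sets 0.02), and over the 26 brighter collagens -0.29 (all bright probe sets -0.06). Differences above 0 numbered 16 (39.0%, against 54.1%). Groups did not overlap for 15 collagens that were lower (against 16.9%) and 3 that were higher (against 15.1%).

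Col6a6, a long alternative chain of type VI collagen, was at 7.61, 8.01 and 7.74 at day 20 and at 6.40, 6.21 and 5.72 at day 49. The groups were more than 1 log2 unit apart, and it fell by 1.68 ± 0.16 (3.20-fold lower, adjusted p = 5.529e-06). Col6a1, with which such chains assemble, was at 10.28, 10.32 and 10.15 and then at 9.80, 9.70 and 10.01, and fell by 0.41 ± 0.13 (adjusted p = 0.0475). The within-array difference of Col6a1 over Col6a6 rose by 1.27 in wild type and 1.61 in mutants, without overlap in either. The Col6a1 call was lost on leaving out any 1 of the wild-type arrays of day 20 or replicates 1 and 2 of day 49 (differences -0.46 to -0.34) and with the Gapdh gap in the model (-0.30).

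Col8a1, the main chain of type VIII collagen, which is found in remodelling vessels and myocardium, was at 6.02, 6.55 and 5.91 at day 20 and at 7.80, 7.22 and 7.99 at day 49. Every later array was above every earlier one, and it rose by 1.51 ± 0.26 (2.84-fold, adjusted p = 0.00123). Col8a2, its partner chain, was at 5.72, 5.85 and 5.41 and then at 4.74, 5.31 and 4.34, a difference of -0.87 ± 0.45 that was not called (adjusted p = 0.253). The difference between the 2 chains widened by 2.37 in each genotype, without overlap, in the within-array values.

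Col5a1 was at 9.51, 9.68 and 9.54 and then at 8.85, 8.60 and 9.11, and fell by 0.72 ± 0.13 (adjusted p = 0.00140). Col5a2 was at 10.26, 10.38 and 10.23 and then at 9.63, 9.52 and 9.87, and fell by 0.62 ± 0.12 (adjusted p = 0.00240). Neither chain overlapped between the ages, and both second probe sets were also called lower. Col5a3, another type V chain, was at 0.00 over this step, and the difference of Col5a1 over it fell by 0.72 in wild type and 0.54 in mutants, without overlap.

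Col1a1 was at 11.20, 10.94 and 11.12 at day 49, below all arrays of day 20, and fell by 0.60 ± 0.17 (adjusted p = 0.0328). That call was lost on leaving out any 1 array of either group except day 20 replicate 3 (differences -0.66 to -0.49), after repeated quantile normalization and with the Gapdh gap in the model (-0.48). Its second probe set fell further (-0.96). Col1a2 was at -0.33 ± 0.14, not called, although its second probe set (-0.67) was. Col3a1, at 12.90, 12.68 and 12.97, was at -0.21 and was called at neither step in either genotype.

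Col4a5 fell by 0.57 ± 0.15 (adjusted p = 0.0178), to 9.91, 9.89 and 10.16. This fall and its earlier rise share the wild-type day 20 arrays, so the calls are not independent of each other. Col4a2 fell by a further 0.48 ± 0.13 (adjusted p = 0.0244), to 10.63, 10.46 and 10.74, and the minor fibrillar chain Col24a1 by 0.46 ± 0.14 (adjusted p = 0.0385). Leaving out wild-type day 20 replicate 2 or day 49 replicate 1 or 2 ended the Col4a5 call (adjusted p = 0.0610 to 0.0979). The Col4a2 and Col24a1 calls were lost without any 1 of day 20 replicates 1 and 2 and day 49 replicates 1 and 2, and with the Gapdh gap in the model (-0.38 and -0.47). Col4a1 was at -0.16, Col6a2 at -0.25 and Col6a3 at -0.46 (adjusted p = 0.128), and Col15a1 (-0.24) and Col18a1 (-0.37) were not called.

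Of the 25 assembly genes 6 fell and 1 rose over this step, and 18 were not called. Of all probe sets 6.05% fell and 3.53% rose. The share of all genes called, given above for this step, was higher than that of all probe sets and is the closer base. The protein disulfide isomerase Pdia3 fell by 0.78 ± 0.09, the chaperone Hspa5 by 0.66 ± 0.12, Fkbp10 by 0.62 ± 0.13 and Serpinh1, the collagen-specific chaperone HSP47, by 0.42 ± 0.08. Lysyl oxidase (Lox), which starts the cross-linking of fibrils, fell by 1.40 ± 0.22 and Pcolce by 0.44 ± 0.11, the 2 called of 9 maturation genes. Of 28 partners 9 fell, led by periostin (Postn, -2.95 ± 0.23) and the laminin chains Lamb1 (-0.52 ± 0.09) and Lama2 (-0.51 ± 0.09), and 1 rose, the proteoglycan Prelp (0.79 ± 0.16).

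The membrane collagenase Mmp14 fell by 0.97 ± 0.19, the 1 call among 19 degradation genes, and Ilk by 0.33 ± 0.08, the 1 call among 11 receptors and partners. TGF-beta and profibrotic genes were split, with 3 higher, including Scx (0.87 ± 0.12) and Tgfb3 (0.60 ± 0.17), and 3 lower, including Smad4 (-0.43 ± 0.10) and the angiotensin receptor Agtr1a (-0.70 ± 0.18). Over this step 1 of 10 fibroblast markers was called, Tcf21 (-0.57 ± 0.11), and none of 10 mural markers was (1 at an unadjusted p below 0.05). Of 10 leukocyte markers 6 were called higher. Of all probe sets 3.53% were called higher and 6.05% lower. The part of these markers in the collagen differences was not tested.

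The mutant heart, whose arrays are separate from those of the wild type, shared the larger age changes of the wild type. From day 1 to day 20 it had 18 called collagens (43.9%, against 28.2% of all probe sets). Of these 12 were lower (29.3%, against 15.9%) and 6 higher (14.6%, against 12.4%). The shares of all genes with 1 probe set each, which in wild type were above those of all probe sets, are not given for mutants. In the same direction 11 collagens were called in both genotypes. Across the 41 genes, which are not independent, 39 differences had the same sign in both genotypes and Pearson's r was 0.919 (Spearman's rho 0.914), as a description. The same measures over all probe sets are not given here, so this agreement does not mark a trait of collagens. Col15a1 rose by 1.41 ± 0.11 and Col18a1 fell by 1.55 ± 0.16, close to the wild-type values. Calls made in mutants only were Col11a1, Col4a4 and Col7a1, lower, and Col5a3, Col6a3, Col6a5 and Col8a1, higher, but no collagen was called in the test of the difference between genotypes given below.

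Chains of types VI and V were called in both directions in mutants, but none of these 4 calls held under every alternative. Col6a3 rose by 0.52 ± 0.18 (adjusted p = 0.0388) while Col6a2 was lower by 0.60 ± 0.15 (adjusted p = 0.00624) on its brighter probe set and higher by 0.33 ± 0.08 (adjusted p = 0.00455) on the other, so that its direction is not settled. The Col6a3 call was lost without mutant day 1 replicate 1 or 3 or day 20 replicate 1 or 3 (0.35 to 0.91 over all alternatives), although its second probe set was called higher (0.79). Col5a3 rose by 0.64 ± 0.22 (adjusted p = 0.0327) while Col5a2 fell by 0.33 ± 0.12 (adjusted p = 0.0374). The Col5a3 call was lost without mutant day 1 replicate 3 or day 20 replicate 1 (0.33 to 1.26 over all alternatives), and that of Col5a2 without day 1 replicate 2 or 3 or day 20 replicate 1 or 2 (-0.41 to -0.24 over all alternatives). For the alternatives that follow, the shares of all probe sets are not given. The mutant count for this step was 8 (4 higher and 4 lower) with the Gapdh gap in the model and 11 when the 2 groups compared were fitted alone. It was also 8 without the 3 day 1 arrays whose gap was above 1, which leaves 1 mutant animal at day 1 that is assumed to vary like the other groups.

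From day 20 to day 49 mutants had 4 called collagens (9.76%, against 10.2% of all probe sets), 1 higher (against 3.92%) and 3 lower (against 6.23%), each also called in the wild type in the same direction. Col8a1 rose by 1.98 ± 0.26, from 6.41, 5.76 and 6.75 to 8.18, 7.90 and 8.79, and Col6a6 fell by 1.77 ± 0.16, from 8.08, 7.73 and 7.81 to 6.07, 6.28 and 5.95. Col5a1 fell by 0.47 ± 0.13 and Col5a2 by 0.52 ± 0.12. Without the 2 mutant day 49 arrays of lowest hybridization controls the calls were 2, Col6a6 and Col8a1, from a group of 1 animal that is assumed to vary like the other groups. Of the 41 differences 30 had the same sign as in wild type (Pearson's r 0.911, Spearman's rho 0.767). These measures over all probe sets are again not given. The change was higher in mutants than in wild type for 29 of 41 collagens (51.4% of all probe sets), and for 22 of the 26 brighter ones, with a median of 0.16 there. These counts share the day 49 arrays with the genotype comparison of day 49 given below, and are not independent of it.

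**Figure D3:**
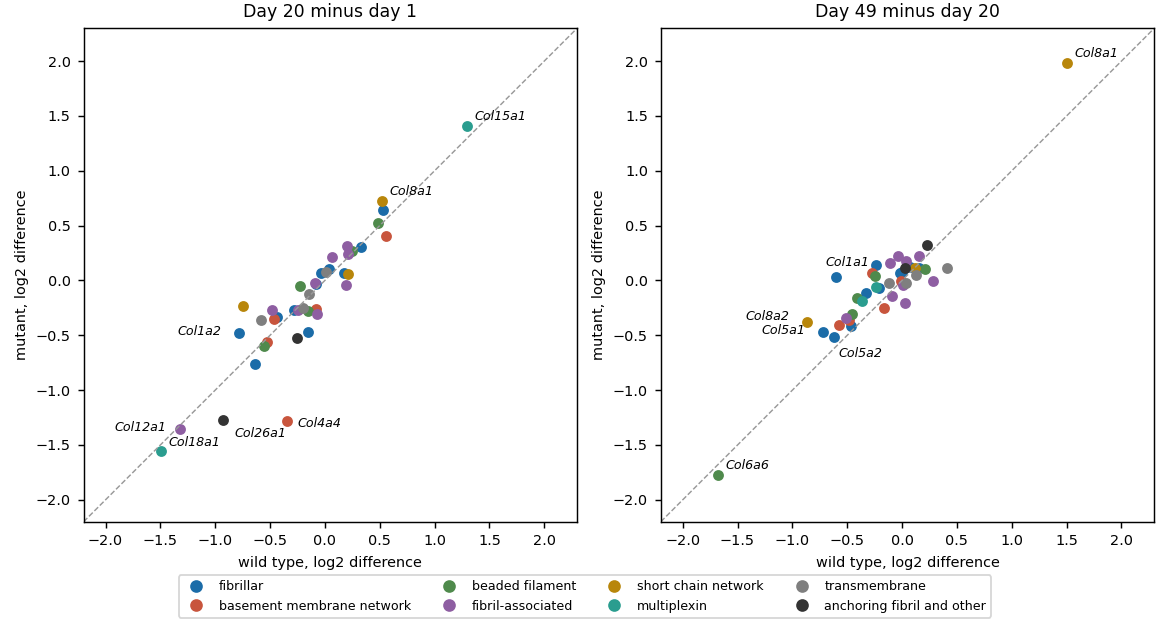
Log2 difference in wild type (horizontal) against that in mutants (vertical) for each of the 41 collagens, coloured by family, from day 1 to day 20 (left) and from day 20 to day 49 (right); the dashed line marks equal differences. Most points lie along the line, with Col4a4 below it on the left (-0.34 and -1.28) and Col1a1 above it on the right (-0.60 and 0.03).

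Between genotypes no collagen was called at day 1, day 20 or day 49, nor in the mean of the 3 ages, where 0.110%, 0.139%, 0.606% and 1.39% of all probe sets were. At an unadjusted p below 0.05 in limma's test, 4, 1, 9 and 6 of the 41 passed, where 6.70%, 4.27%, 8.16% and 9.63% of all probe sets did. The 95% intervals bound what these data allow. They lay within 1 log2 unit of 0 for 39 collagens at day 1, 40 at day 20, 39 at day 49 and all 41 in the mean of ages, the exceptions being Col4a4 and Col8a2 at day 1, Col8a2 at day 20, and Col8a1 and Col8a2 at day 49.

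At day 49 the collagens leaned toward higher levels in mutants. The difference was above 0 in 32 of 41 (78.0%, against 51.8% of all probe sets), with a median of 0.09 (all probe sets 0.01), and among the 26 brighter collagens in 22, with a median of 0.24 (bright probe sets 0.0050). The 41 genes are not independent, so these counts are a description. Per array, the mean level over the collagens was 6.87 to 7.07 in mutants, highest in replicate 3, and 6.71 to 6.86 in wild type, barely apart. The 9 with an unadjusted p below 0.05 were all higher, namely Col1a1, Col1a2, Col3a1, Col5a1, Col5a2, Col6a1, Col6a3, Col8a1 and Col15a1. Of the fibrillar chains 10 of 11 were above 0, and of the beaded filament chains 3 of 5. The groups did not overlap for 6 collagens, all higher in mutants (14.6%, against 6.70% of all probe sets), and for none that was lower (against 6.96%).

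Col1a1 at day 49 was at 11.43, 11.59 and 11.93 in mutants and at 11.20, 10.94 and 11.12 in wild type. No mutant array reached down to the wild type, and the difference was 0.56 ± 0.17 (95% interval 0.20 to 0.92, adjusted p = 0.223), with 0.51 on the second probe set. Col1a2 was at 11.18, 11.16 and 11.62 in mutants and 10.81, 10.80 and 11.11 in wild type, also without overlap, at 0.41 ± 0.14 (interval 0.11 to 0.72, adjusted p = 0.318). Mutant replicate 3 was the highest for both chains, and without it the differences were 0.42 and 0.27. Without the 2 mutant arrays of lowest hybridization controls, which leaves that animal alone in its group, they were 0.84 and 0.71.

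Col3a1 was at 13.02, 13.01 and 13.21 against 12.90, 12.68 and 12.97, at 0.23 ± 0.10 (adjusted p = 0.514). Col6a3 was at 10.36, 10.33 and 10.27 against 9.82, 9.80 and 10.07, at 0.42 ± 0.18 (adjusted p = 0.523), with a clear space between the groups. Col15a1 (11.05, 11.05 and 11.22 against 10.80, 10.74 and 11.04, at 0.25 ± 0.11) was barely apart. Col8a1 was at 8.18, 7.90 and 8.79 against 7.80, 7.22 and 7.99, overlapping, at 0.62 ± 0.26 (interval 0.07 to 1.17, adjusted p = 0.511), at 0.37 without mutant replicate 3, at 0.40 without wild-type replicate 2 and at 1.13 without the 2 mutant arrays of low hybridization controls.

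Col5a1, Col5a2 and Col6a1 overlapped between the genotypes, at 0.30 ± 0.13, 0.27 ± 0.12 and 0.29 ± 0.13. Col6a1 was at 10.24, 10.18 and 9.96 in mutants against 9.80, 9.70 and 10.01, and Col5a2 at 9.93, 9.76 and 10.14 against 9.63, 9.52 and 9.87. Basement membrane chains differed less at this age, with Col4a1 at 0.07, Col4a2 at 0.09 and Col4a5 at 0.14, and Col18a1 was at 0.23 ± 0.16. Col8a2 was at 4.25, 5.90 and 6.53 in mutants against 4.74, 5.31 and 4.34, so that its interval reached 1.70 and the data say little about it.

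**Figure D4:**
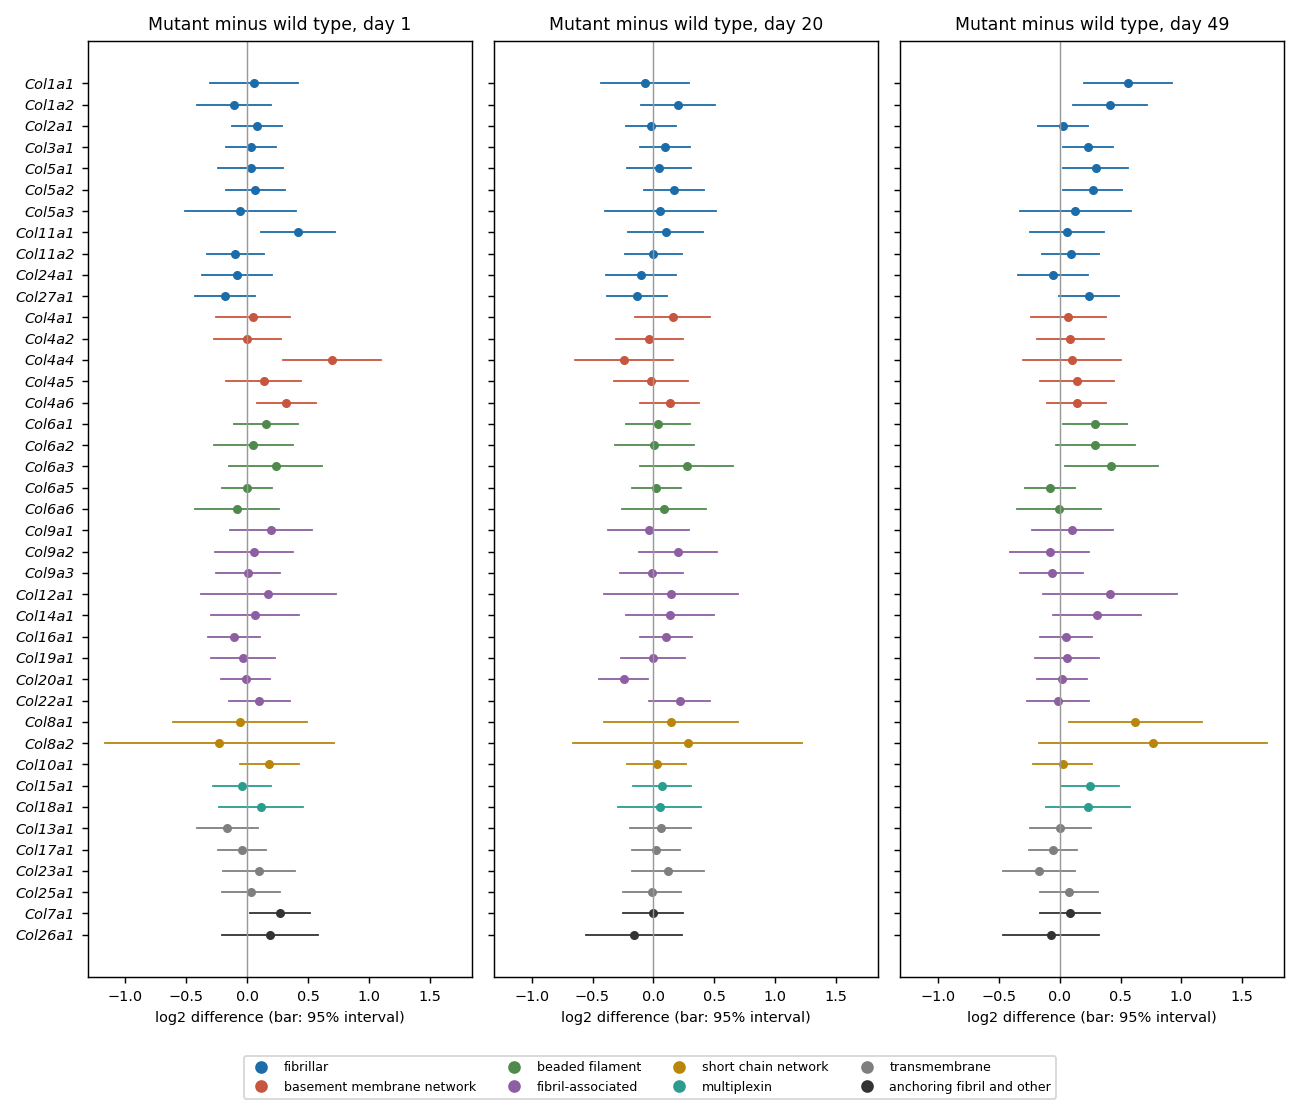
Mutant minus wild-type log2 difference (points) with its 95% interval (bars; n = 3 animals per group) for the 41 collagens at days 1, 20 and 49, coloured by family. At day 49 the intervals of 9 collagens lie above 0 and none below, although no collagen passed the adjusted threshold at any age.

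At the earlier ages the median over the collagens was closer to 0. At day 1, 26 of 41 collagens were above 0 (63.4%, against 51.3%), with a median of 0.05, and at day 20, 27 of 41 (65.9%, against 49.1%), with a median of 0.05. At day 1 the groups did not overlap for 1 collagen that was higher (2.44%, against 4.74% of all probe sets) and for none that was lower (against 4.33%). At day 20 they were 2 lower, Col20a1 and Col4a4 (against 5.76%), and none higher (against 4.67%).

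Col4a4, a basement membrane chain near background here, was at 5.88, 6.14 and 5.35 in newborn mutants against 4.73, 5.57 and 4.99 in wild type. The ranges overlapped and the difference was 0.70 ± 0.19 (adjusted p = 0.269), but it was called without wild-type day 1 replicate 2 (0.93, adjusted p = 0.0251) or without mutant day 1 replicate 3 (0.92, adjusted p = 0.0262). Without the 3 arrays of Gapdh gap above 1 it was 0.49, with mutant replicate 3, the lowest of its group, as the 1 mutant array left. Col11a1, a minor fibrillar chain also near background, was the collagen without overlap at this age, at 4.52, 4.62 and 4.25 against 4.08, 4.12 and 3.96 (0.41 ± 0.14, adjusted p = 0.491). Its groups were apart on this probe set alone. Its other, dimmer probe sets overlapped, with group means of 3.06 in mutants against 3.09 and of 3.25 against 3.08.

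Averaged over ages, 31 of 41 collagens were above 0 (75.6%, against 51.6%), with a median of 0.09. The smallest unadjusted p values belonged to Col4a6 (0.20 ± 0.07), Col6a3 (0.31 ± 0.10), Col5a2 (0.17 ± 0.07), Col11a1 (0.19 ± 0.08), Col6a1 (0.16 ± 0.07) and Col3a1 (0.12 ± 0.06), with adjusted p from 0.220 to 0.509. Col4a6, a basement membrane chain, was at 6.28, 6.25 and 5.88 in newborn mutants against 5.82, 5.91 and 5.72, and was close in both genotypes later. It was called in this mean without mutant day 1 replicate 3 (0.24, adjusted p = 0.0487). Col6a3 was at 10.17, 10.39 and 9.76 in mutants against 9.77, 10.38 and 9.46 at day 1, and at 10.73, 10.49 and 10.66 against 10.27, 10.51 and 10.28 at day 20, overlapping at both ages, and was called without wild-type day 1 replicate 2 (0.39, adjusted p = 0.0204). On its second, dimmer probe set the group means were 4.50 in mutants against 4.67 at day 1, the other direction. They were 5.29 against 5.14 at day 20 and 5.55 against 5.28 at day 49.

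The difference between genotypes in the age changes was tested by a moderated F statistic (limma) on the interaction of age and genotype. No collagen was called (0.0741% of all probe sets were), and 3 of 41 had an unadjusted p below 0.05, Col4a4, Col27a1 and Col1a1, as did 4.36% of all probe sets. For Col1a1 the change from day 20 to day 49 was 0.03 ± 0.17 in mutants, which stood at 11.79, 11.39 and 11.68 at day 20, against the fall of 0.60 in wild type. The difference of the 2 changes was 0.63 ± 0.24 (95% interval 0.12 to 1.14, unadjusted p = 0.0183, adjusted p = 1), which did not pass the threshold. The second probe set of Col1a1 was called lower in mutants too over this step (-0.55 ± 0.14, adjusted p = 0.0194, against -0.96 in wild type), with a difference of the changes of 0.41 ± 0.20 (adjusted p = 1), so that the 2 probe sets differ on whether Col1a1 fell in mutants.

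Some genes that act on collagen were called between genotypes. Of all probe sets 0.110%, 0.139% and 0.606% were called at days 1, 20 and 49, and 1.39% in the mean of ages. Plasminogen (Plg), the precursor of the protease plasmin, was higher in mutants at day 1 by 0.66 ± 0.12 (adjusted p = 0.0331). The connective tissue growth factor Ccn2 was higher at day 20 by 1.78 ± 0.31 (adjusted p = 0.0198), and Postn at day 49 by 1.12 ± 0.23 (adjusted p = 0.0289). With a block for replicate number within each age in the limma model, the Ccn2 and Postn calls were lost (adjusted p = 0.0585 and 0.0700). In the mean of ages Ccn2 (0.90 ± 0.18) and the ligand Tgfb2 (0.31 ± 0.07, adjusted p = 0.0319) were higher and the ligand Pdgfa was lower (-0.35 ± 0.07, adjusted p = 0.0187). Nothing was called among assembly, maturation or receptor genes at any age. These lists hold 25, 9 and 11 genes, so at the shares above an absence of calls says little. Serpinh1 (0.29 ± 0.08, adjusted p = 0.158), Pdia3 (0.29 ± 0.09), Pcolce (0.41 ± 0.11, adjusted p = 0.140), Loxl1 (0.31 ± 0.14) and Ilk (0.29 ± 0.08, adjusted p = 0.111) came closest at day 49, none of them called. Unadjusted p values below 0.05 in limma's test numbered 8 of 25 assembly, 3 of 9 maturation and 1 of 11 receptor genes at day 49, 3, 0 and 1 at day 1, and 0, 2 and 1 at day 20, where 8.16%, 6.70% and 4.27% of all probe sets passed at days 49, 1 and 20.

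Beside the collagen lean at day 49, 9 of 10 fibroblast markers were above 0 in mutants and none was called (3 at an unadjusted p below 0.05), with a median of 0.13. Of all probe sets 51.8% were above 0 and 8.16% had an unadjusted p below 0.05 in limma's test. Their mean level was 8.96 to 9.15 in mutants and 8.82 to 8.97 in wild type. Of 10 leukocyte markers 8 were above 0 and none was called (1 at an unadjusted p below 0.05), while 5 of 10 mural and 3 of 9 endothelial markers were above 0. The mean level of 9 cardiomyocyte markers was 13.15 to 13.20 in mutants and 13.22 to 13.23 in wild type, without overlap. The part of these markers, and of the lower hybridization controls of 2 mutant arrays, in the collagen differences was not tested.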

How the data were processed

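RNA of 18 rat hearts was measured on Affymetrix Rat 230 2.0 arrays. Per the series design text and the submitters' processing notes, the authors processed the scanner files by robust multi-array analysis (RMA, version not given in the sources used here), which corrects background and averages the probes of a probe set, and the deposited values are log2 levels. They were used as deposited. After leaving out 57 control probe sets, 31042 were fitted with limma 3.58.1 in R 4.3.3 (lmFit, eBayes) in 1 model of 6 groups, with 12 residual degrees of freedom. Probe sets were named from the platform annotation: 20826 had 1 symbol, 436 several and 9780 none, and only those with 1 were named. Levels were not compared between genes. Depth has no counterpart on arrays, and 3 animals per group limit the precision. Errors of differences are standard errors. The fit of the day 49 genotype comparison was run on simulated data as a check of the code only. The simulated noise was independent between probe sets, unlike real arrays, and the outcome is not given here.

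The collagen families, the lists of related and marker genes, and the comparisons were chosen with earlier results of these data known. Values per array were given for the 6 collagens with the smallest unadjusted p in the mean genotype difference, for the called wild-type age changes of largest size (up to 4 rises and 4 falls per step) and for a fixed set of main heart collagens. From each related list up to 4 called genes per comparison were named, or 2 where none was called. Other genes were named after their values were seen. The within-array differences between chains of 1 type were added after seeing the data and carry no test. Alternatives were the Gapdh gap as a covariate, other scaling, filters on dim probe sets, other probe set rules, the replicate block and leaving out arrays.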

Additional observations from a re-analysis of the deposited data

How the results depend on the processing

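No called collagen changed sign under any alternative run. Shares of all probe sets called under the alternatives are not given, so changes in the counts below do not mark a trait of collagens. Calls that held under every alternative were 8 of 13 for day 20 against day 1 and 4 of 9 for day 49 against day 20 in wild type, and 5 of 18 and 2 of 4 in mutants. With the Gapdh gap as a covariate the wild-type count from day 20 to 49 was 5 and the mutant count from day 1 to 20 was 8, also 8 without the 3 day 1 arrays of gap above 1 (chosen after seeing the data) and 11 with those groups alone. The mutant count from day 20 to 49 was 2 without 2 arrays of low hybridization controls (chosen after seeing the data). Leaving out 1 array gave 10 to 15 and 4 to 9 calls in wild type, 12 to 18 and 3 to 4 in mutants, and 0 to 1 between genotypes at day 1 and in the mean of ages. The median collagen change was -0.0041 (Gapdh gap) and -0.0028 (without the 3 arrays) against -0.23 in mutants from day 1 to 20, and -0.29 without dim probe sets against -0.11 in wild type from day 20 to 49. The causes were not tested beyond this. Same-numbered arrays correlated at -0.19 to 0.22 over 9 pairs, so the numbers were not taken as pairs. Under the replicate block within each age, collagen calls were 0 at each age between genotypes, 15 and 9 for the wild-type steps and 17 and 5 for the mutant steps, and related genes had 1 call (Plg) against 3, with Ccn2 at day 20 (adjusted p = 0.0585) and Postn at day 49 (adjusted p = 0.0700) no longer called.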
